A study of Thermothelomyces thermophilus with 18 samples.

Results

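Gene expression was compared between 6 h and 4 h of growth on Avicel, a microcrystalline cellulose, in MtWT, the wild-type strain of the thermophilic fungus *Myceliophthora thermophila*. The comparison asked how the transcript levels of this strain change with time on cellulose. It holds 6 of the 18 RNA-seq libraries, chosen by the strain, carbon source and time in the labels, with 3 libraries at each time. MtWT is ATCC 42464, and its mycelium was washed and moved to 2% Avicel after 16 h in 2% glucose at 45 °C. Such a glucose culture preceded every sample and is common to both times. The study's methods describe the libraries as independent biological replicates. The other 12 libraries came from MtWT after 4 h on 2% starch and from ΔMttrc-1 on Avicel for 4 h or 6 h and on starch for 4 h. ΔMttrc-1 is a deletion mutant made by CRISPR-Cas9 that lacks the gene of the cellulase regulator MtTRC-1, and the level of that gene is not analysed here. These libraries entered the fit and gave reference levels.

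Filamentous fungi that live on plant litter take up sugar only after secreted enzymes have cut the polymer. Cellobiohydrolases release cellobiose from the ends of cellulose chains, endoglucanases cut within the chains, and beta-glucosidases split cellobiose to glucose. Lytic polysaccharide monooxygenases (LPMOs) cleave crystalline cellulose by oxidation, and cellobiose dehydrogenase can supply them with electrons. All these proteins enter the secretory pathway at the endoplasmic reticulum (ER), where chaperones fold them and where the unfolded protein response (UPR), run by the transcription factor HAC-1, adjusts the folding capacity.

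The 6 libraries held 17250057 to 23417246 counts. Levels are given as CPM, counts relative to the library total after scaling by the trimmed mean of M values (TMM), and errors of levels are SDs of 3 libraries. They are shares of the RNA of whole mycelium, so fewer cells of a kind and less RNA per cell cannot be told apart. The median coefficient of variation across genes was 9.63% at 4 h and 5.91% at 6 h. Replicate 3 of 4 h departed most from the others of its group. Its log2 CPM correlated with replicates 1 and 2 at 0.988 and 0.989, and those with each other at 0.993. The pairs of 6 h libraries had correlations of 0.992 to 0.994. The growth condition was checked with *cbh-1* (Mycth_109566) and *cbh-2* (Mycth_66729), which encode cellobiohydrolases. The *cbh-1* level was 65.2 ± 2.35 CPM on starch and at least 8370.2 CPM in every Avicel library, and the *cbh-2* level was 59.8 ± 3.29 CPM on starch and at least 5894 CPM on Avicel. Both genes were thus far above their starch levels in all 6 libraries.

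A gene was called changed at an adjusted p under 0.05 in edgeR's quasi-likelihood test together with a change of over 1, up or down, on the log2 scale. Of 8573 genes tested, 1206 were called, which is 14.1%. At 6 h, 720 genes were higher (8.40%) and 486 were lower (5.67%). Libraries of both times were free of overlap in 1166 of the 1206 called genes and in 68.6% of all genes tested. The median level of all genes tested was 36.5 CPM at 4 h and 36.8 CPM at 6 h. The genes that fell had a median of 74.9 CPM at 4 h, above that level, and of 27.8 CPM at 6 h, below it. The genes that rose were weakly expressed at both times, with a median of 2.76 CPM at 4 h and 8.36 CPM at 6 h. More than 4-fold changes were seen in 153 of the higher and 43 of the lower genes.

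How the libraries are scaled set the balance between both directions. TMM factors were 0.777 to 0.809 at 4 h and 0.947 to 0.960 at 6 h, and over all genes the median log2 fold change was 0.012. When the libraries were scaled by their totals instead, that median became 0.28, 1232 genes were called higher and 225 lower, and the higher genes made up 84.6% of the calls in place of 59.7%. The fold changes below are relative to the typical gene, and calls that are lost under scaling by totals are named where they occur.

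**Figure D1:**
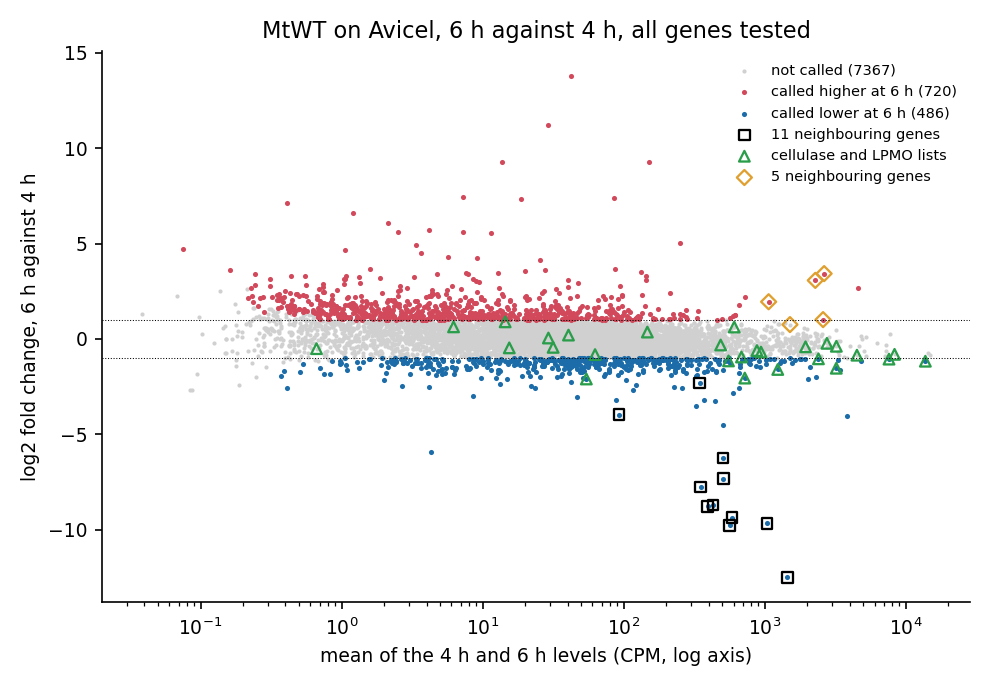
Each point is 1 of 8573 genes tested in MtWT. The x axis is the mean of the 4 h and 6 h levels in CPM on a log axis, the y axis is the log2 fold change of 6 h against 4 h, and red and blue mark genes called higher and lower. The 720 genes called higher lie mostly at low levels, the 11 neighbouring genes shown as squares lie at the bottom between log2 fold changes of -12.50 and -2.31, and the cellulase and LPMO genes lie mostly below 0.

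The major cellulase genes were still highly expressed at 6 h but stood below their 4 h levels. Of the cellulase list, 17 of 18 genes were tested, of which 4 fell and 0 rose, beside 5.67% and 8.40% of all genes. The 0 is by edgeR and also by DESeq2, and at an unadjusted p under 0.05 the higher genes numbered 4 and the lower genes 12. The median log2 fold change of the list was -0.44, beside 0.012 for all genes. The reference genes actin (Mycth_2314852) and *tef-1* (Mycth_2298136) also stood lower at 6 h, at -0.46 and -0.88. The list median was thus not below those of the reference genes. The cellulase, LPMO, UPR and starch genes that the study names were picked by it with these libraries in view, so their counts here are not independent evidence.

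Transcripts of *cbh-1*, the main cellobiohydrolase gene, stood at 18372, 18053 and 20605 CPM at 4 h and 8568, 8370.2 and 8396 CPM at 6 h. Every 6 h library lay below every 4 h library. The log2 fold change of *cbh-1* (Mycth_109566) was -1.17 ± 0.049 (SE) (edgeR adjusted p = 1.13e-16), and it was -0.90 and no longer called when libraries were scaled by totals. The gene *cbh-2* (Mycth_66729), which encodes the second cellobiohydrolase, had 9635, 9903 and 12179 CPM at 4 h and 6062, 6129.7 and 5894 CPM at 6 h. The groups did not overlap, and the log2 fold change of *cbh-2* was -0.81 ± 0.075, short of the fold threshold.

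The endoglucanase gene *gh5-1* (Mycth_86753) had 9676, 9565 and 11515 CPM at 4 h and 4863, 5092 and 4783 CPM at 6 h. The 4 h libraries all lay higher, replicate 3 the most. Its log2 fold change was -1.06 ± 0.058, but -0.97 without replicate 3 of 4 h and -0.79 under scaling by totals, both short of the threshold. Per gene length, its deposited level went from a mean of 5452 to 3144 RPKM and that of *cbh-1* (Mycth_109566) from 7803 to 4171 RPKM, so that *cbh-1* had the higher level per length at both times.

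The other 2 called members were Mycth_111388, of the cellobiose dehydrogenase family, and the oligoxyloglucanase gene Mycth_116384. Mycth_111388 stood at 4681, 4559 and 5078 CPM at 4 h and 1696, 1614 and 1619 CPM at 6 h, a log2 fold change of -1.54 ± 0.062 (edgeR adjusted p = 6.75e-17), and it stayed called under scaling by totals at -1.27. Mycth_116384, whose enzyme acts on xyloglucan, stood at 701, 740.3 and 846 CPM at 4 h and 350.1, 342 and 335 CPM at 6 h, a log2 fold change of -1.16 ± 0.062 that became -0.89 and was not called under scaling by totals. In both genes the times were free of overlap. The list therefore had 1 lower member under scaling by totals. Relative to the median of all genes its median was -0.46 under either scaling. That value could hardly differ, because the scaling shifts all genes by nearly the same amount, so it is no check of the result.

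Of the 17 tested cellulase genes, 5 had log2 fold changes above 0 and 12 below, and 13 were not called. The second cellobiose dehydrogenase gene, Mycth_81925, had 3315, 3128 and 2477 CPM at 4 h and 2471, 2826 and 2294 CPM at 6 h, so its times overlapped. The beta-glucosidase gene *gh1-1* (Mycth_115968) was at a mean of 2219.7 CPM at 4 h and 1664 CPM at 6 h, a log2 fold change of -0.42 ± 0.066. The beta-glucosidase gene Mycth_2059579 was at 10.1 CPM and 18.7 CPM, with a log2 fold change of 0.89 ± 0.12 that was 1.16 and called under scaling by totals and 1.01 and called without replicate 1 of 4 h. The endoglucanase gene Mycth_109444 was at 129 CPM and 165 CPM and the Barwin-related endoglucanase gene Mycth_2090891 at 478 CPM and 735 CPM, with log2 fold changes of 0.36 and 0.62, both short of the threshold. The other members not called were Mycth_76901 (endoglucanase V), Mycth_66804 (beta-glucosidase), Mycth_111372, Mycth_116157, Mycth_101354 and Mycth_104106, with log2 fold changes of -0.61, -0.44, -0.69, -0.32, 0.20 and 0.63. The gene Mycth_112399, with a cellulose-binding module of family 1, stood at 893, 834 and 971 CPM at 4 h and 463, 467 and 467 CPM at 6 h. Its log2 fold change of -0.95 ± 0.061 lay at the edge of the threshold and was -1.003 and called without replicate 2 of 4 h.

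**Figure D2:**
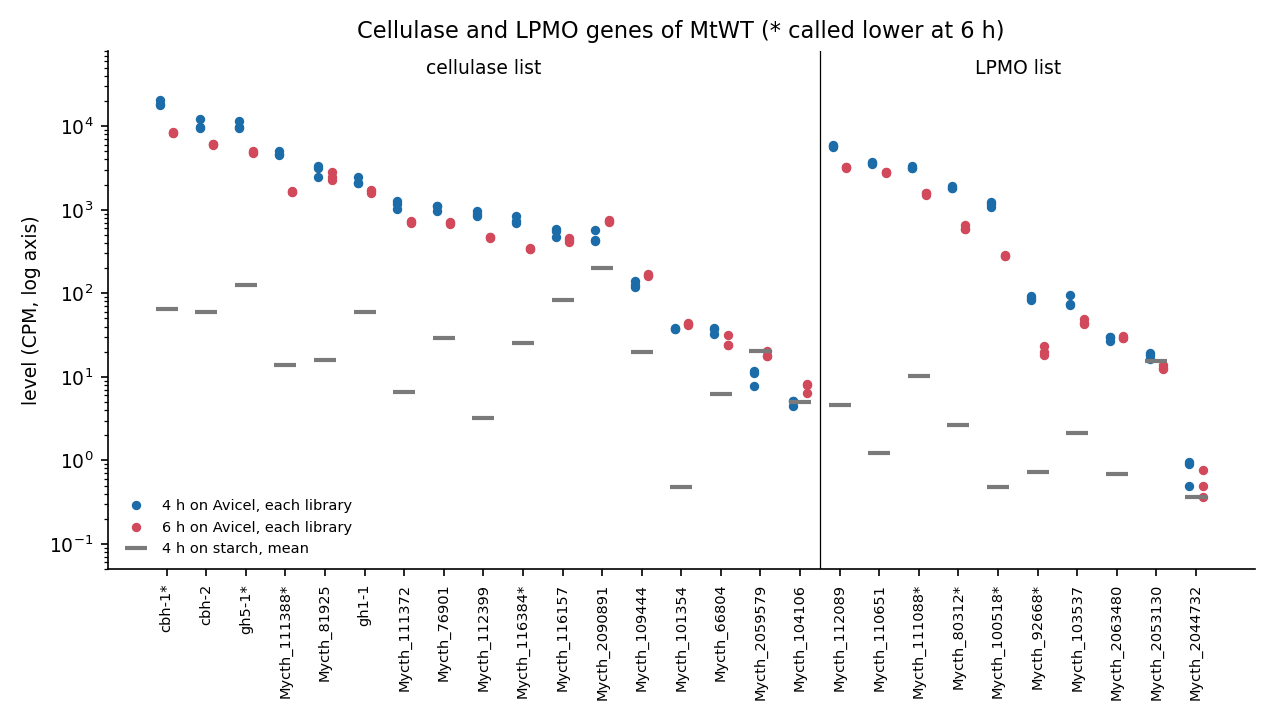
Levels of the 17 tested cellulase genes and the 10 LPMO genes of MtWT, in CPM on a log axis. Dots are single libraries at 4 h and 6 h on Avicel, and grey bars are means of 3 starch libraries. The 8 starred genes were called lower at 6 h, and *cbh-1*, *cbh-2* and *gh5-1* at 6 h remain far above their starch levels of 65.2, 59.8 and 125 CPM.

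The LPMO genes gave a lower median than the cellulase genes. All 10 LPMO genes of the list were tested, of which 4 fell and 0 rose, beside 5.67% and 8.40% of all genes. The 0 is by edgeR and by DESeq2, with 0 higher and 8 lower at an unadjusted p under 0.05. The median log2 fold change was -0.84, and relative to the median of all genes it was -0.85. This relative value hardly depends on the scaling, which shifts all genes by nearly the same amount. Mycth_80312 stood at 1925, 1802 and 1843 CPM at 4 h and 654, 588 and 591 CPM at 6 h, a log2 fold change of -1.60 ± 0.067 (edgeR adjusted p = 9.86e-16). The family 61W gene Mycth_100518 stood at 1165, 1079.7 and 1239.6 CPM at 4 h and 279, 284 and 276 CPM at 6 h, a log2 fold change of -2.05 ± 0.072. In both genes every 6 h library lay below every 4 h library.

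Mycth_92668 stood at 83.7, 88.4 and 92.1 CPM at 4 h and 18.4, 19.6 and 23.6 CPM at 6 h, with a log2 fold change of -2.10 ± 0.13. The fourth, Mycth_111088, described as family 61I, had means of 3230.3 and 1565 CPM and a log2 fold change of -1.05 ± 0.075, which was -0.78 under scaling by totals and -0.98 in a fit of genes with a mean of at least 10 CPM, not called in either. The more abundantly counted LPMO genes Mycth_112089 and Mycth_110651 had log2 fold changes of -0.85 and -0.39, short of the fold threshold, with libraries free of overlap. Mycth_103537, Mycth_2053130 and Mycth_2044732 were at -0.82, -0.47 and -0.51, the last with under 1 CPM in every library. Mycth_2063480 stood at 29.8, 29.8 and 26.7 CPM at 4 h and 29.4, 30.5 and 29.2 CPM at 6 h, with overlap. Cellulase and LPMO genes together took 5.47% to 5.88% of all counts at 4 h, 3.51% to 3.61% at 6 h and 0.0882% to 0.0913% on starch, which places 6 h below 4 h and both far above starch.

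Hemicellulase genes were called at a share near that of all genes. Of 21, 19 were tested, with 1 higher and 1 lower, beside 8.40% and 5.67% of all genes, and their median log2 fold change was -0.10. The xylanase gene Mycth_100068, of the family GH11 that cuts the xylan backbone, stood at 1694, 1502 and 1466 CPM at 4 h and 1451, 1497 and 1399 CPM at 6 h. Its times overlapped, and its level on starch was 0.277 CPM. The family 43 gene Mycth_2072383, of a family active on xylan and arabinan side chains, rose from a mean of 33.3 to 80.3 CPM, with a log2 fold change of 1.27 ± 0.12. The family 31 gene Mycth_104674 fell from 55.6, 46.5 and 44.9 CPM at 4 h to 17.6, 19.1 and 19.1 CPM at 6 h, with a log2 fold change of -1.40 ± 0.11. Of the 8 pectin and arabinan genes, 0 were called by edgeR or by DESeq2, beside 14.1% of all genes tested. At an unadjusted p under 0.05, 3 of them were higher and 2 lower.

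No gene of the UPR and ER list passed the fold threshold. Of 10 genes, 0 were called by edgeR and 0 by DESeq2, beside 14.1% of all genes tested. In a list this short, that share amounts to few genes. At an unadjusted p under 0.05, 5 were higher and 3 lower, and the median log2 fold change was 0.10. *Mthac-1* (Mycth_2310995), the UPR regulator, stood at 856, 839 and 821 CPM at 4 h and 847, 852 and 898 CPM at 6 h. The times overlapped, and the log2 fold change was 0.046 ± 0.043 (edgeR adjusted p = 0.347). Counts per gene do not separate the spliced from the unspliced transcript of *Mthac-1*.

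The ER chaperone gene *lhs1* (Mycth_2312968), known in yeast as a partner of the main ER Hsp70, had the largest value of the list, with 166, 162 and 158 CPM at 4 h and 273, 269.5 and 296 CPM at 6 h. Its log2 fold change of 0.79 ± 0.053 was short of the threshold and was 1.05 and called under scaling by totals. The gene *mpd1* (Mycth_2295433), of the protein disulfide isomerase family, had 363, 360.0 and 329 CPM at 4 h and 551, 529.8 and 525 CPM at 6 h and a log2 fold change of 0.61 ± 0.048. The translocon subunit gene Mycth_2073127 (Sec61-beta) and the Hsp70 gene *grp78* (Mycth_2315513) had log2 fold changes of 0.48 and 0.29. For *pdi1* (Mycth_2296005), *cnx1* (Mycth_2295005), *sec63* (Mycth_2303597) and the sec61 subunit gene Mycth_2314691 the values were -0.17, -0.030, -0.12 and -0.20, and all 4 were above 0 under scaling by totals, at 0.10, 0.23, 0.15 and 0.063. The gene *sec62* (Mycth_2310016) was at 0.15. Of 18 genes of secretory traffic, again 0 were called by edgeR or DESeq2, beside 14.1% of all genes tested. At an unadjusted p under 0.05, 8 of them were higher and 3 lower.

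The largest decreases stood next to each other in the genome. A series of 11 neighbouring genes, from Mycth_68164 to Mycth_48716 in the order of the RefSeq assembly ASM22609v1, was highly expressed at 4 h and had lost most of its RNA at 6 h. All 11 fell, with log2 fold changes between -12.50 and -2.31 and a median of -8.71. Their median level was 998 CPM at 4 h, 2.54 CPM at 6 h and 0.999 CPM on starch. Together they took 0.967% to 0.997% of the counts at 4 h and 0.0147% to 0.0159% at 6 h. The search for neighbours, which asked for at least 4 consecutive tested genes called the same way, was made after the values were seen and is a description. It found 4 series with 27 genes in all.

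The gene with the largest decrease was Mycth_115957 in this series, described as a 2OG-Fe(II) oxygenase, an enzyme class that oxidizes small molecules or proteins with the help of iron. It stood at 2979, 2783 and 2888 CPM at 4 h and 0.441, 0.603 and 0.423 CPM at 6 h. Each 6 h library was below 1 CPM. The log2 fold change was -12.50 ± 0.13 (edgeR adjusted p = 5.17e-28). The study's descriptions at hand cover none of the other 10 genes.

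Mycth_48716 stood at 2342, 2214 and 1654 CPM at 4 h and 2.20, 3.29 and 2.12 CPM at 6 h, Mycth_50128 at 1164, 1036 and 1180.2 CPM at 4 h and 1.38, 1.37 and 1.09 CPM at 6 h, and Mycth_81364 at 1100.5, 1078 and 1329.8 CPM at 4 h and 1.32, 2.14 and 1.81 CPM at 6 h. In these 3 genes the times differed by log2 fold changes of -9.66, -9.77 and -9.37. Mycth_2303709, Mycth_2138881, Mycth_2303707 and Mycth_2303702 had means of 786, 854, 697 and 1011 CPM at 4 h and 1.78, 2.04, 3.19 and 6.29 CPM at 6 h. The highest levels at 6 h were those of Mycth_50920 and Mycth_68164. Mycth_68164 stood at 895, 1037 and 1063 CPM at 4 h and 14.1, 13.3 and 12.2 CPM at 6 h, and Mycth_50920 at 538, 549 and 631 CPM at 4 h and 123, 110.4 and 114 CPM at 6 h. Mycth_2303701 had the lowest 4 h mean of the series, 174 CPM. At 6 h, 10 of the 11 means were still above those on starch, and that of Mycth_68164 was below its starch mean of 24.6 CPM.

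The 3 genes on one side were lower by less than the fold threshold. Mycth_2303695, directly beside the series, had a log2 fold change of -0.59 ± 0.075 (edgeR adjusted p = 1.52e-07), with means of 119 and 78.7 CPM. Beyond it, Mycth_2303693 had -0.97 ± 0.075, with means of 52.4 and 26.8 CPM, and Mycth_2303692 had -0.57 ± 0.069. In all 3 the times were free of overlap. On the other side, the major facilitator superfamily (MFS) transporter gene Mycth_107763 stood at 44.9, 42.3 and 40.7 CPM at 4 h and 44.4, 43.2 and 48.4 CPM at 6 h, a log2 fold change of 0.088 ± 0.11 and a level on starch of 6.22 CPM. Further out on that side, Mycth_2062976 rose with a log2 fold change of 1.37 ± 0.50 between means of 0.513 and 1.33 CPM, and the MFS transporter gene Mycth_2118002 rose from 0.227, 0.240 and 0.220 CPM at 4 h to 2.92, 3.45 and 2.42 CPM at 6 h.

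**Figure D3:**
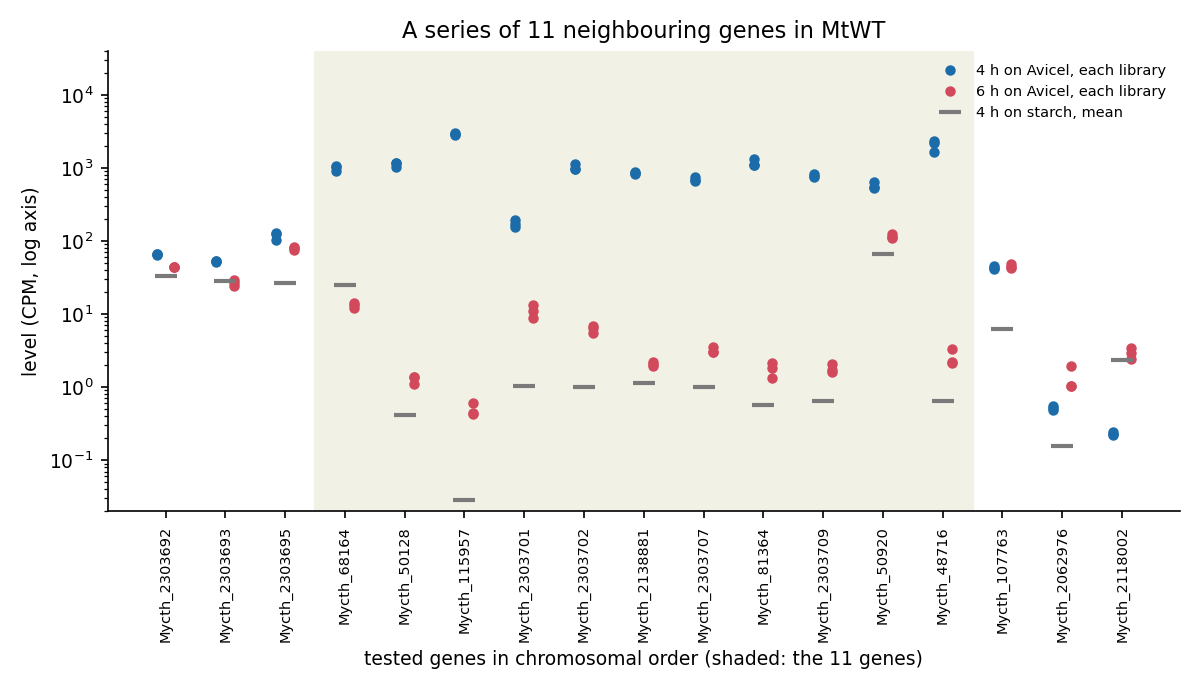
Levels in CPM, on a log axis, of tested genes in their chromosomal order, with the 11 neighbouring genes shaded. Dots are single MtWT libraries at 4 h and 6 h on Avicel and grey bars are means of 3 starch libraries. Within the shaded part the 4 h dots lie far above the 6 h dots, with medians of 998 and 2.54 CPM, while Mycth_107763 just outside overlaps between the times.

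A second series of 7 tested genes, from Mycth_2135772 to Mycth_105482, fell by less. Its log2 fold changes were -4.52 to -1.41 with a median of -2.84, and its median level was 601 CPM at 4 h, 83.6 CPM at 6 h and 229 CPM on starch. It includes Mycth_105482, with a phosphopantetheine attachment site as carrier proteins of polyketide and peptide synthases have, which stood at 1039.5, 1096 and 771 CPM at 4 h and 42.9, 41.7 and 41.8 CPM at 6 h. The level of this gene at 6 h was below its mean on starch, 245.4 CPM. Mycth_113600, with a steroid dehydrogenase domain, had means of 803 and 83.6 CPM, and Mycth_2069815, with an EthD domain, of 387 and 68.4 CPM. In the annotation 2 further genes lie between these 7.

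Among called genes, the largest loss in CPM after *cbh-1* was that of Mycth_108407, an aromatic-ring hydroxylase gene. Enzymes of this class put oxygen on aromatic rings. It stood at 8084, 7883 and 5607 CPM at 4 h and 460.1, 424 and 423 CPM at 6 h, a log2 fold change of -4.04 ± 0.11 (edgeR adjusted p = 1.26e-15). Replicate 3 was the lowest 4 h library, and all 4 h libraries were far above all 6 h libraries. The level on starch was 147 CPM. Mycth_66338, with no description at hand, stood at 4646, 4745 and 6151 CPM at 4 h and 1745, 1555 and 1741 CPM at 6 h and at 1579 CPM on starch, and its log2 fold change was -1.62 ± 0.076. Mycth_2303045, also without a description, stood at 6643, 6304 and 7023 CPM at 4 h and 2981, 3109.5 and 2844 CPM at 6 h, with 4.83 CPM on starch, and its log2 fold change of -1.16 ± 0.065 became -0.89 and was not called under scaling by totals.

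Transcription factor genes fell more often than they rose. Of 41 tested genes of the list, 8 were lower and 1 was higher, beside 5.67% and 8.40% of all genes, and the median log2 fold change was -0.25. Under scaling by totals the numbers were 6 lower and 4 higher, and the median was 0.023. The basic helix-loop-helix gene Mycth_110028 was among the 8 largest losses in CPM of called genes, at 3539, 3899 and 3618 CPM at 4 h and 968, 842 and 991 CPM at 6 h. Its log2 fold change was -1.98 ± 0.059, and its level on starch was 2299 CPM. The Zn2Cys6-type gene Mycth_2058263, of the class that includes the fungal cellulase regulators, stood at 147, 157 and 169.7 CPM at 4 h and 14.6, 17.5 and 20.1 CPM at 6 h, and its log2 fold change was -3.18 ± 0.087. The CP2 factor gene Mycth_2082522 stood at 178, 214 and 210.4 CPM at 4 h and 29.9, 35.3 and 28.7 CPM at 6 h, with 214 CPM on starch and a log2 fold change of -2.68 ± 0.082. In all 3 genes the times were free of overlap. Mycth_10175, another regulator of the fungal type, had a log2 fold change of -2.06 ± 0.20 between means of 15.8 and 3.80 CPM, and the homeodomain-like gene Mycth_2089975 was the member that rose, from 2.84 to 10.1 CPM.

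A few genes went from near 0 to clear expression between 4 h and 6 h. A mean under 1 CPM at 4 h and of at least 10 CPM at 6 h was found in 10 genes, and the opposite in 1 gene, Mycth_115957 of the 11-gene series. Mycth_2310279 had 0 counts in all 4 h libraries and 4459 counts at 6 h, with 83.2, 84.9 and 84.6 CPM, so it was at least 1474-fold higher against a floor of 3 counts over the 4 h group. Mycth_2063631 had 1 count at 4 h and 3088 at 6 h, so it was 3062 times as high (95% interval from counting 549 to 120994). Mycth_2309542 had 2 counts at 4 h and 1445 at 6 h, 716 times as high (198 to 5922). On starch these genes had means of 0.0261, 0.366 and 0.110 CPM. The study's descriptions at hand give no function for these genes.

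Mycth_2300099 stood at 0.170, 0.779 and 0.495 CPM at 4 h and 295, 288 and 319 CPM at 6 h, a log2 fold change of 9.28 ± 0.18, and Mycth_2308185 at 1.02, 1.08 and 0.934 CPM at 4 h and 161, 172 and 174 CPM at 6 h, a log2 fold change of 7.38 ± 0.14. Mycth_2314555 was already expressed at 4 h and stood at 14.5, 14.6 and 15.4 CPM at 4 h and 469, 502 and 492 CPM at 6 h, with 67.0 CPM on starch. In each of these genes the 6 h libraries were more than 10 times above every 4 h library. Mycth_2307803, Mycth_2315383, Mycth_2299605 and Mycth_2115472 completed the 10 largest increases among called genes with at least 10 CPM in a group, with log2 fold changes of 7.45, 7.32, 5.61 and 5.54 and means of 14.3, 37.4, 14.3 and 22.5 CPM at 6 h. Mycth_2299605 opens a series of 4 neighbouring genes that rose, with a median log2 fold change of 2.75 and median levels of 2.35 and 14.1 CPM.

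Of the 8 called genes with the largest gains in CPM, 4 lie side by side, in a block of 5 genes that was noticed after the values were seen. Mycth_82772 stood at 422, 407 and 517 CPM at 4 h and 4727, 4994 and 4716 CPM at 6 h, a log2 fold change of 3.42 ± 0.065. Mycth_69746 stood at 484, 456 and 517 CPM at 4 h and 4032, 4075 and 4101 CPM at 6 h, a log2 fold change of 3.07 ± 0.052. Neither has a description at hand. The neighbouring transferase gene Mycth_11658 stood at 476, 441 and 398 CPM at 4 h and 1728, 1715 and 1623 CPM at 6 h, with a log2 fold change of 1.95 ± 0.056 (edgeR adjusted p = 4.77e-20). Mycth_82782 stood at 1517, 1614 and 2016 CPM at 4 h and 3456, 3327 and 3579.9 CPM at 6 h, and its log2 fold change of 1.01 ± 0.070 was not called without replicate 1 of 4 h (0.93), without replicate 2 of 4 h (0.97) or without replicate 3 of 6 h (0.98). The fifth gene, Mycth_108317, again with a phosphopantetheine attachment site, had 1234, 1259 and 879 CPM at 4 h and 1914, 1938 and 1814 CPM at 6 h and a log2 fold change of 0.75, short of the threshold. In all 5 genes each 6 h library lay above each 4 h library.

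In ΔMttrc-1 the same 5 genes went the other way. Mycth_82772 was at 11794 ± 407 CPM at 4 h and 691 ± 10.3 CPM at 6 h there, and Mycth_69746 at 11186 ± 602 CPM at 4 h and 496 ± 11.8 CPM at 6 h. At 4 h the deletion strain was thus far above MtWT, and at 6 h it was below. The log2 fold changes of the 5 genes in ΔMttrc-1 were -5.82 to -2.44, and all 5 were called in the test of the difference between the strains, with differences of 3.45 to 7.56. On starch, MtWT had 1239.9 CPM of Mycth_82772 and 1644 CPM of Mycth_69746. Beside the block, Mycth_2306185 and Mycth_2064854 had log2 fold changes of -0.056 and 0.11 in MtWT, and Mycth_108314 on the other side one of 0.98, none of them called. In ΔMttrc-1, Mycth_2064854 fell as well, with 309 ± 8.11 CPM at 4 h and 135 ± 3.90 CPM at 6 h, and its difference between the strains of 1.30 ± 0.076 was called (edgeR adjusted p = 8.37e-14), while those of Mycth_2306185 (-0.15) and Mycth_108314 (0.92) were not.

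**Figure D4:**
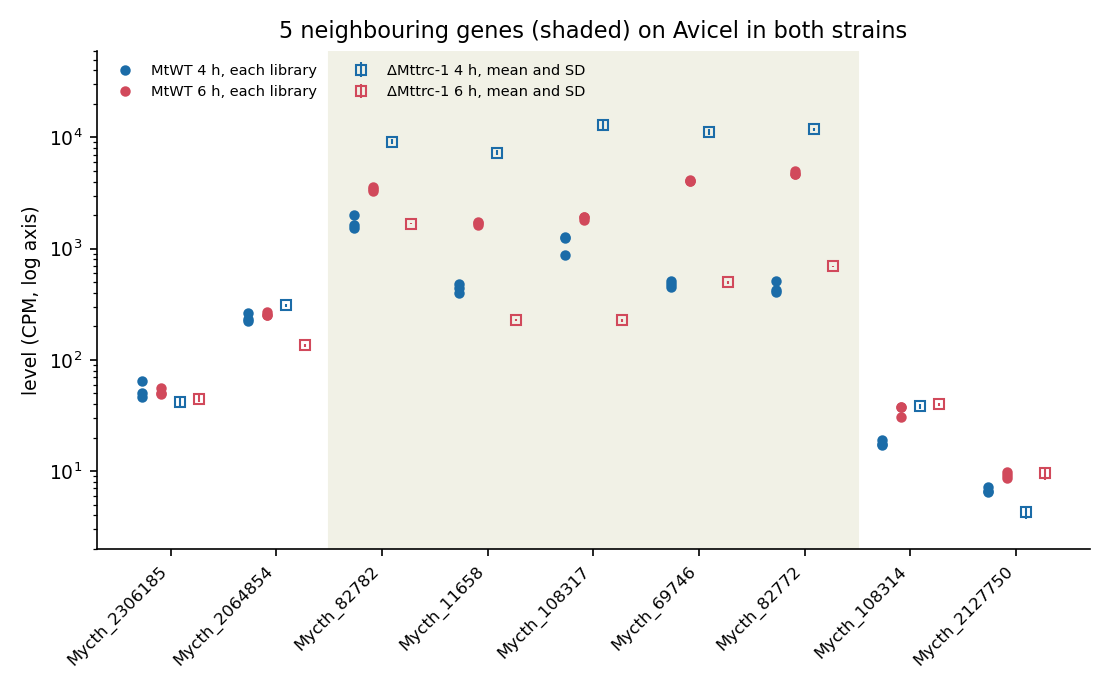
Levels in CPM, on a log axis, of 9 genes in chromosomal order, with the block of 5 shaded. Filled dots are single MtWT libraries and open squares are means with SDs of 3 ΔMttrc-1 libraries, blue at 4 h and red at 6 h on Avicel. In the block, MtWT moved up with time and ΔMttrc-1 moved down from levels of 7295 to 12865 CPM, while of the genes to the left Mycth_2064854 also moved down in ΔMttrc-1 and had a log2 fold change of 0.11 in MtWT.

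The other 4 of the 8 called genes with the largest gains in CPM are not described in the sources used here. Mycth_2314727 had the largest gain, with 1239, 1189 and 1349 CPM at 4 h and 7498, 8392 and 7699.9 CPM at 6 h, a log2 fold change of 2.64 ± 0.057 and 2022 CPM on starch. Mycth_2315946 stood at 269, 247 and 263 CPM at 4 h and 1144, 1238 and 1154 CPM at 6 h, a log2 fold change of 2.18 ± 0.053. Mycth_2134407 and Mycth_2312519 had log2 fold changes of 1.79 ± 0.10 and 1.25 ± 0.078, and all 4 were free of overlap between the times. These 4 genes also went the other way in ΔMttrc-1, with log2 fold changes of -1.28, -1.83, -1.85 and -0.74, the last not called. All 4 differences between the strains were called, at 3.92, 4.01, 3.65 and 1.99 in the same order. The opposite change was thus not particular to the block above.

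Among starch genes, *glaA* (Mycth_72393), the glucoamylase gene, rose on cellulose. It stood at 15.7, 14.6 and 15.3 CPM at 4 h and 68.6, 69.4 and 67.2 CPM at 6 h, a log2 fold change of 2.17 ± 0.077 (edgeR adjusted p = 4.64e-18). Its level at 6 h was still under that on starch, 296 ± 12.2 CPM. The alpha-glucosidase gene Mycth_2303089 had means of 1.69 and 3.07 CPM, with 75.6 CPM on starch, and its log2 fold change of 0.87 ± 0.19 was 1.14 and called under scaling by totals. The alpha-glucosidase gene Mycth_2087807 had a log2 fold change of 0.37 ± 0.080. All 3 were above 0 under either scaling.

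Central carbon metabolism gave 1 higher and 3 lower genes of 17 tested, beside 8.40% and 5.67% of all genes. The gene Mycth_110871, of the isocitrate lyase family, whose best known member opens the glyoxylate shunt, rose from 9.25, 9.11 and 9.01 CPM at 4 h to 23.6, 21.5 and 24.3 CPM at 6 h, with 90.8 CPM on starch. Its log2 fold change was 1.34 ± 0.10. Mycth_2067689 is described only by the barrel domain of pyruvate kinase, the enzyme of the last step of glycolysis. It stood at 57.9, 59.3 and 131 CPM at 4 h and 22.3, 17.7 and 19.2 CPM at 6 h, so that replicate 3 of 4 h was far above the other 2. Its log2 fold change was -2.07 ± 0.28 and -1.57 without that library, still called. The L-lactate dehydrogenase gene Mycth_110317 stood at 572, 542 and 795 CPM at 4 h and 216, 221 and 203 CPM at 6 h, a log2 fold change of -1.57 ± 0.11. Mycth_112227, of the phosphoketolase family that splits sugar phosphates, stood at 3836, 3859 and 5657 CPM at 4 h and 2124, 2122 and 2056 CPM at 6 h. Its log2 fold change was -1.08 ± 0.10, but -0.87 without replicate 3 of 4 h and -0.81 under scaling by totals, neither of them called.

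The sugar transporter list was near the background. Of 14 tested, 1 rose and 0 fell, beside 8.40% and 5.67% of all genes. The 0 is by edgeR and DESeq2, with 3 lower at an unadjusted p under 0.05. The riser was Mycth_108924, which stood at 25.0, 28.5 and 23.4 CPM at 4 h and 50.2, 54.1 and 58.5 CPM at 6 h, a log2 fold change of 1.08 ± 0.068, with 167 CPM on starch. The strongly counted transporter gene Mycth_114107 stood at means of 2192 and 2431 CPM, with 11.3 CPM on starch. Among 29 other MFS transporter genes 4 rose and 0 fell, again by both tools and beside the same shares of all genes. At an unadjusted p under 0.05, 5 of them were lower. Mycth_2118002 near the 11-gene series was the largest of these, at a log2 fold change of 3.65 ± 0.32. Mycth_109499 had a log2 fold change of 1.88 ± 0.17 and belongs to a series of 5 neighbouring genes that rose, with a median log2 fold change of 1.99. That series also holds Mycth_112805, with a condensation domain of peptide synthases, at means of 1.83 and 9.20 CPM. Mycth_2022670 was called at a log2 fold change of 2.12 ± 0.77 with under 1 CPM in every library, and it lost its call without replicate 2 of 4 h (1.59), replicate 3 of 4 h (1.54) or replicate 2 of 6 h (1.91).

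Of 20 tested oxidative stress genes, 3 rose and 1 fell, beside 8.40% and 5.67% of all genes, which leaves the list near the background. The globin-like gene Mycth_110640 fell from 1449, 1541 and 1428 CPM to 708, 685 and 699 CPM, with a log2 fold change of -1.08 ± 0.043 that was -0.81 and not called under scaling by totals. The risers were all under 10 CPM. The chloroperoxidase gene Mycth_2067982 stood at 2.38, 2.94 and 2.47 CPM at 4 h and 7.27, 6.35 and 7.38 CPM at 6 h. The others were the multicopper oxidase gene Mycth_2112160 and Mycth_2111272, which is described only by the family name fungal lignin peroxidase. Among 22 cytochrome P450 genes, 3 rose and 2 fell, also near those shares. Mycth_2114617 had 0 counts at 4 h and 44 at 6 h, so it was at least 14.5-fold higher against a floor of 3 counts over the 4 h group. Mycth_102965 and Mycth_112815 rose with log2 fold changes of 1.25 and 1.07. Mycth_2120988 and Mycth_2109000 fell, with log2 fold changes of -1.60 and -1.14, and the latter was not called without replicate 3 of 4 h (-0.87), without replicate 2 of 6 h (-0.84) or under scaling by totals (-0.87).

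Lists of general cell functions differed in their share of calls, beside 14.1% of all genes tested. Ribosomal protein genes (25 tested), chromatin and DNA replication genes (28) and amino acid and nitrogen transport genes (8) had 0 calls by edgeR or DESeq2, with 4, 12 and 4 higher and 14, 6 and 1 lower at an unadjusted p under 0.05. Of 14 heat shock and folding genes, 2 rose and 1 fell, with the DnaJ-type gene Mycth_112086 rising from 21.7 to 59.8 CPM. The DnaJ-type calls of Mycth_2109705 and Mycth_2114944 lay at log2 fold changes of 1.00 and -1.05. The first was not called without replicate 2 (0.86) or 3 (0.80) of 4 h or replicate 1 (0.94) or 2 (0.85) of 6 h. The second was -0.78 under scaling by totals, -0.97 without replicate 3 of 4 h and -0.99 without replicate 3 of 6 h, none of them called. Peptidase genes had 3 risers of 19 by edgeR and 4 by DESeq2, those of edgeR all under 5 CPM. Mitochondrial respiration had 1 riser and 1 faller of 11, of which the succinate dehydrogenase-type gene Mycth_100589 fell from 26.6 to 10.1 CPM. In the secondary metabolism list 2 rose and 2 fell of 20, where Mycth_101261 (-1.07) was not called without replicate 2 of 4 h (-0.53) or under scaling by totals (-0.80), and Mycth_104726 (1.16) not without replicate 3 of 4 h (0.98). The fungal cell wall list had 1 riser and 1 faller of 22, of which the chitin-binding gene Mycth_103070 at -1.27 ± 0.17 became -0.95 and was not called without replicate 3 of 4 h. Neither reference gene was called, with actin (Mycth_2314852) at -0.46 ± 0.052 and *tef-1* (Mycth_2298136) at -0.88 ± 0.059 on the log2 scale, between means of 2368 and 1719 CPM and of 6773 and 3683 CPM.

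**Figure D5:**
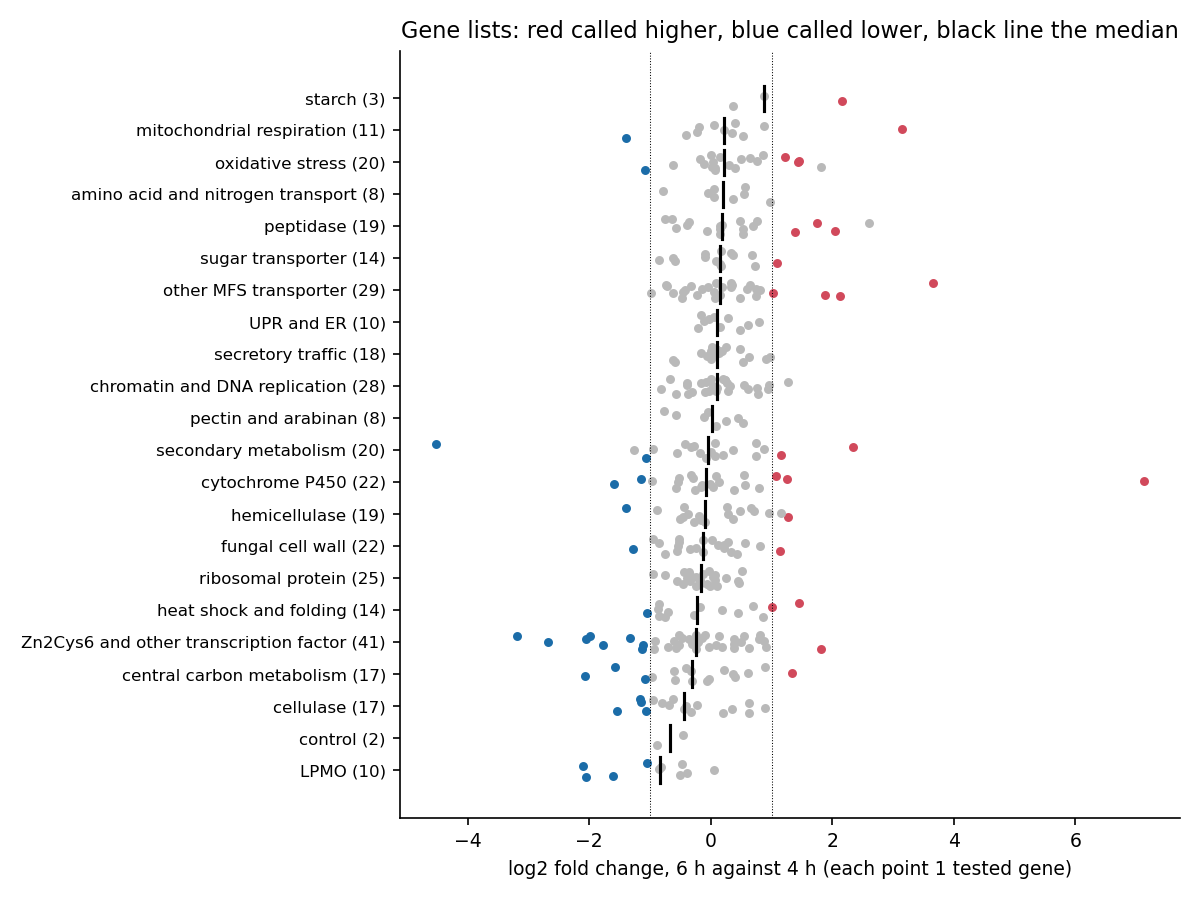
Log2 fold changes of 6 h against 4 h in MtWT for each tested gene of 22 lists, with the number tested in brackets. Red points were called higher, blue points lower, grey points were not called, black lines are medians and dotted lines mark a fold change of 2. The LPMO median of -0.84 and the cellulase median of -0.44 lie at the lower end beside the control genes, and the P450 point at the far right is Mycth_2114617, fitted against 0 counts at 4 h.

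Whether the change with time was particular to MtWT was asked by the difference of the 6 h against 4 h change between MtWT and ΔMttrc-1. In this test 1922 genes were called, 22.4% of those tested, with 1017 more positive in MtWT (11.9%) and 905 more negative (10.6%). Scaling by totals gave 679 and 1635, with a median difference over all genes of -0.34. In ΔMttrc-1 itself 9.44% of genes were higher and 9.55% lower at 6 h. The difference was called as more positive in MtWT in 5 of 10 LPMO genes and as more negative in 1, and the median LPMO change was -0.84 in MtWT and -2.11 in ΔMttrc-1. For Mycth_100518 the difference was 1.37 ± 0.11, with 198 ± 17.9 CPM at 4 h and 18.4 ± 1.74 CPM at 6 h in ΔMttrc-1. The differences of Mycth_111088 (1.16) and Mycth_80312 (1.01) lay near the threshold and were 0.83 and 0.68 and not called under scaling by totals. The value for Mycth_80312, difference between strains, was also under 1 without replicate 2 of MtWT at 4 h (0.99), replicate 1 of MtWT at 6 h (0.96), replicate 3 of ΔMttrc-1 at 4 h (0.98) and replicate 1 (0.95) or 2 (0.99992) of ΔMttrc-1 at 6 h.

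The cellulase list differed in 4 of 17 genes, near the 22.4% of all genes tested. Of the 4, 3 were more positive in MtWT, beside 11.9% of all genes. The largest was that of the Barwin-related endoglucanase gene Mycth_2090891, with a difference of 3.89 ± 0.12. It stood at 2061 ± 100.2 CPM at 4 h and 214 ± 4.50 CPM at 6 h in ΔMttrc-1 and at 478 ± 86.9 CPM at 4 h and 735 ± 22.2 CPM at 6 h in MtWT. *cbh-1* (Mycth_109566) fell in both strains, by 2.25-fold in MtWT, and the difference of 0.60 ± 0.068 on the log2 scale was short of the threshold. The difference of *cbh-2* (Mycth_66729) was 0.92 ± 0.11, and 1.03 and called without replicate 3 of MtWT at 4 h.

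In ΔMttrc-1 the 11-gene series had a median level of 34.9 CPM at 4 h and 0.653 CPM at 6 h. All its genes except Mycth_68164 were called lower at 6 h in that strain too. Mycth_68164, at its edge, was at 26.2 ± 1.27 CPM at 4 h and 32.7 ± 2.42 CPM at 6 h in ΔMttrc-1, and its difference of -6.56 ± 0.11 was the most negative among genes with at least 10 CPM in a group. Mycth_2295346 also went opposite ways, with 71.2, 76.3 and 85.0 CPM at 4 h and 23.3, 24.3 and 21.9 CPM at 6 h in MtWT and 23.6 ± 1.12 CPM at 4 h and 198 ± 5.65 CPM at 6 h in ΔMttrc-1. Mycth_2300099 was at 5.45 ± 0.752 CPM at 4 h and 14.4 ± 1.46 CPM at 6 h in ΔMttrc-1, with a difference of 7.88 ± 0.28.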

How the data were processed

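Per the labels, total RNA of mycelium was sequenced. Reads were mapped by the authors to the predicted transcripts with TopHat2 2.0.8b, only unique hits being kept, and the raw counts per gene that they deposited came from HTSeq 0.5.4p2, both versions per the submitters' processing notes. The study's methods name other versions. No source used here gives a build name or strand setting, so that a gene and an overlapping or antisense partner may share reads. The authors also deposited RPKM values, the counts per gene length and library size, used for comparing genes and in an alternative test. All count and RPKM columns were matched to samples by title. The description of each MtWT library titled replicate 3 carries the name of replicate 2, which leaves its group the same.

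The counts of 9109 genes went into edgeR 4.0.16 under R 4.3.3 (TMM, filterByExpr by group, robust glmQLFit and glmQLFTest on 6 group means of 18 libraries). The filter left out 536 genes with 0.00416% of the counts of the 6 libraries. Adjusted p-values are Benjamini-Hochberg over all 8573 genes tested. SEs are approximate, from the F statistic. Counting intervals and floors cover counting error only. Alternatives used limma 3.58.1 and DESeq2 1.42.0, and the main procedure was tested on simulated data. RefSeq locus tags of ASM22609v1 matched 9086 genes and gave the gene order. Most genes have no description at hand. Descriptions, from the study, covered 1456 tested genes, so the lists are partial. The members and lists were chosen with earlier results of these data known. Named were every tested gene of the cellulase, LPMO, UPR and ER, starch and control lists. Of called genes without overlap and with a mean of at least 10 CPM in a group, the 10 most increased, the 10 most decreased, and the 8 largest gains and losses in CPM were named, with called genes of the other lists, for which the rule allowed up to 3 a direction. For the difference between strains the 5 most positive and 5 most negative called genes were named. Neighbours and genes named for contrast were chosen after their values were seen.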

Additional observations from a re-analysis of the deposited data

Results flagged for a closer look

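Flagging covered 52 named genes, those of the cellulase, LPMO, UPR and ER, starch and control lists and those ranked by the difference between strains. In 22 of them the change from 4 h to 6 h on Avicel differed between MtWT and ΔMttrc-1, by the test of the difference itself in edgeR. Of the 22, 12 came from the lists and 10 by rank, the latter picked because they were called. Among all genes tested, 22.4% were called. Some other named genes, such as Mycth_2314727 (3.92), were also called but are not in this count. Values are the MtWT change minus the ΔMttrc-1 change on the log2 scale. Among the lists, the more positive LPMO genes were Mycth_110651 (1.90), Mycth_112089 (1.76), Mycth_100518 (1.37), Mycth_111088 (1.16) and Mycth_80312 (1.01), and Mycth_2063480 was more negative (-1.10). Among cellulase genes, Mycth_2090891 (3.89), Mycth_112399 (1.85) and Mycth_109444 (1.52) were more positive and Mycth_66804 (-1.66) more negative. *Mthac-1* (Mycth_2310995) had a difference of -1.05, with 839 ± 17.6 CPM at 4 h and 866 ± 28.3 CPM at 6 h in MtWT and 250.4 ± 11.5 CPM at 4 h and 534 ± 3.96 CPM at 6 h in ΔMttrc-1, while for the alpha-glucosidase gene Mycth_2303089 it was -2.10.

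By rank, Mycth_2063631 (10.59) and Mycth_2310279 (10.09) had the most positive differences, but both had at most 1 count at 4 h in MtWT, so these fitted values depend on the prior count. Mycth_2300099 (7.88), Mycth_69746 (7.56) and Mycth_82772 (7.52) followed. The most negative were Mycth_68164 (-6.56), Mycth_50128 (-5.86), Mycth_115957 (-5.82), Mycth_2295346 (-4.81) and Mycth_2303709 (-4.80). Of these, Mycth_115957 had a mean of 0.0721 CPM in ΔMttrc-1 at 6 h, too few counts for a firm value. Mycth_50128 and Mycth_2303709 also ended at low means there, 0.653 and 0.958 CPM, from 9.89 and 15.5 CPM at 4 h. Both were called lower in ΔMttrc-1 as well.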

How the results depend on the processing

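With library totals 1232 genes were higher and 225 lower. With limma on the deposited RPKM values, which also follow library totals, the counts were 763 and 170 at a pseudocount of 1 and 1178 and 214 at 0.1. The list medians under these 3 settings were -0.18, -0.17 and -0.19 for cellulase, -0.57 in each for LPMO, 0.37, 0.36 and 0.37 for UPR and ER, and 0.023, 0.022 and 0.023 for transcription factors, the last with its sign reversed. They left 1 lower cellulase gene each, 1 higher one with library totals and at pseudocount 0.1, 1 higher UPR and ER gene each, 4 higher transcription factor genes with library totals and at pseudocount 0.1, and 5 lower ones at pseudocount 1. The sign reversed, in the same order, for Mycth_81925 (0.030, 0.039, 0.039), *pdi1* (0.097, 0.096, 0.096), *cnx1* (0.23, 0.23, 0.24), Mycth_2314691 (0.063, 0.061, 0.062) and *sec63* (0.15, 0.15, 0.15), and for the strain differences of Mycth_104106 (-0.13, -0.10, -0.12), Mycth_111388 (-0.29, -0.29, -0.29), Mycth_2044732 (-0.13, -0.041, -0.15) and *cnx1* (-0.12, -0.12, -0.12). None of these reversed values was called. The strain difference gave 1635 more negative genes with library totals, 580 more positive ones at pseudocount 1 and 1609 more negative ones at 0.1.

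A mean of at least 10 CPM left 386 higher genes and put *cnx1* at 0.030. A test against a fold of 2 gave 283 higher and 215 lower genes, and 651 more positive and 442 more negative strain differences. DESeq2 and its size factors in edgeR changed no call of a named gene. Leaving out 1 library at a time gave 698 to 756 higher and 442 to 527 lower genes, cellulase medians of -0.60 to -0.38, 0 to 1 higher cellulase genes (1 without replicate 1 of 4 h) and 1 to 2 higher transcription factor genes (2 without replicate 3 of 4 h). The sign was not stable, with no call, for Mycth_2063480 (-0.00813 to 0.071) and for Mycth_116157, difference between strains (-0.13 to 0.029), Mycth_2044732, difference between strains (-0.31 to 0.60), and Mycth_111388, difference between strains (-0.00132 to 0.094). Of 78 named genes called, 50 kept direction and call under all their alternatives.

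Fitting the replicate number as a block gave 722 higher and 483 lower genes and changed no call of a named gene or list. Deviations of libraries of the same number correlated at -0.069, -0.014 and 0.13, so the numbers were not taken to pair the libraries. Genes near 0 at 4 h rest on few counts, and their fold changes are limited by depth.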

Other observations

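Some of the genes that rose together lie side by side but at low levels. The 4 genes from Mycth_2299605 to Mycth_2299610 had median levels of 2.35 CPM at 4 h, 14.1 CPM at 6 h and 5.92 CPM on starch, and in ΔMttrc-1 of 2.91 and 5.37 CPM at 4 h and 6 h on Avicel. The 5 genes from Mycth_112805 to Mycth_109499 had medians of 2.76, 11.1 and 2.14 CPM in MtWT and of 1.54 and 4.72 CPM in ΔMttrc-1. The 7 genes from Mycth_2135772 to Mycth_105482 that fell in MtWT had medians of 303 and 11.7 CPM in ΔMttrc-1. These neighbours were chosen after their values were seen.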
